A study of Homo sapiens with 9 samples.

Results

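Transcripts of human cells labelled NB4 were compared after 48 h with the compound FB23 and after 48 h with its solvent, DMSO. The comparison takes in 6 of the 9 libraries of the series, 3 labelled FB23 and 3 labelled DMSO, chosen by their titles. The other 3 libraries were treated with FB23-2 and served here for a shared estimate of the spread. They also entered the filter on low counts, the scaling of the counts and the mean level by which genes were chosen for naming. Poly(A) RNA was sequenced, and no genotype, strain or dose is given in the labels. The treatment of the FB23 group is labelled as inhibition of FTO, an enzyme that removes the methyl group of N6-methyladenosine (m6A) in RNA. All groups are the same cell line, and nothing in the labels says that the replicates were separate cultures. The p-values then measure only the spread between these libraries, which may be technical.

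Expected counts per library, the reads that RSEM assigns to genes, summed to between 16804604 and 18514243 with DMSO and to 12360291, 31326915 and 38410750 in FB23 replicates 1, 2 and 3. FB23 replicate 1 was thus the shallowest library. Gene length minus RSEM's effective length, which grows with fragment length, also had its highest median over genes there. That median was 399 bases against 367 to 379 in the other 5. On the second principal component of the 6 libraries, which held 20.5% of the variance, FB23 replicate 1 lay apart from FB23 replicates 2 and 3. The first component, with 37.4%, separated FB23 from DMSO. The labelled cell type is acute monocytic leukaemia, and NB4 is known as a promyelocytic line. Its defining granule genes were at or near 0: MPO and CTSG had 0 counts in all 6 libraries, and ELANE had 1 count. Taking 3 counts over the 6 libraries pooled as the limit, 0 counts is a level of at most 0.0223 CPM (counts scaled to the library total). Erythroid genes were abundant, with the fetal globin HBG2 at 8367, 8094 and 7849 TPM with DMSO and 9121, 9120.0 and 9462 TPM with FB23. The myeloid surface gene CD33 was present at 44.8, 43.7 and 43.6 TPM with DMSO and 38, 39.6 and 38.7 TPM with FB23. The cells are named by their label below.

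Several systems recur below. Growing cells spend much of their transcription on ribosomes: RNA polymerase I makes the ribosomal RNA, nucleolar factors cleave and fold it, small nucleolar RNAs (snoRNAs) guide its modification, and MYC is a known activator of these genes. Replication-dependent histone genes are read in S phase and their mRNAs normally end in a stem-loop, not in a poly(A) tail. Cholesterol synthesis is controlled by SREBP factors, which INSIG1 holds in the endoplasmic reticulum when sterol is plentiful, and cell iron is controlled through ferritin, which stores it, and the transferrin receptor, which imports it.

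The files list 26830 genes, and 13365 passed a filter on low counts and were tested with edgeR's quasi-likelihood test, and genes with a Benjamini-Hochberg adjusted p under 0.05 are called. Called genes made up 23.5% of those tested, with 12.3% higher (1647 genes) and 11.2% lower (1497 genes) with FB23. Most changes were small: the median absolute log2 fold change of called genes was 0.29, and 1168 higher and 730 lower genes changed by at least 0.25, 422 and 220 by at least 0.5 and 102 and 53 by at least 1. In 37.9% of tested genes the 3 FB23 libraries lay wholly above or wholly below the 3 DMSO libraries. Over 18 other ways of processing, 1347 genes stayed called in every setting that tested them. A gene that a setting did not test was not counted as lost there. The balance of directions moved with the scaling and the model, to 1881 higher and 1172 lower with scaling by library totals, 1397 and 939 with limma on log2(TPM + 1), 2120 and 1088 with no filter, and 1895 and 2684 with trends on GC content and length removed. In what follows, levels are TPM as deposited, which are corrected for gene length, and log2 values are edgeR's fold changes of scaled counts, FB23 minus DMSO, with their SE over 3 libraries per group. A list's counts are set against the 12.3% and 11.2% above, and a range in parentheses after a count gives its lowest and highest value over the 18 other settings where these differ from it by over 1.5 times. Bulk RNA cannot tell fewer cells of a kind from less RNA per cell.

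**Figure D1:**
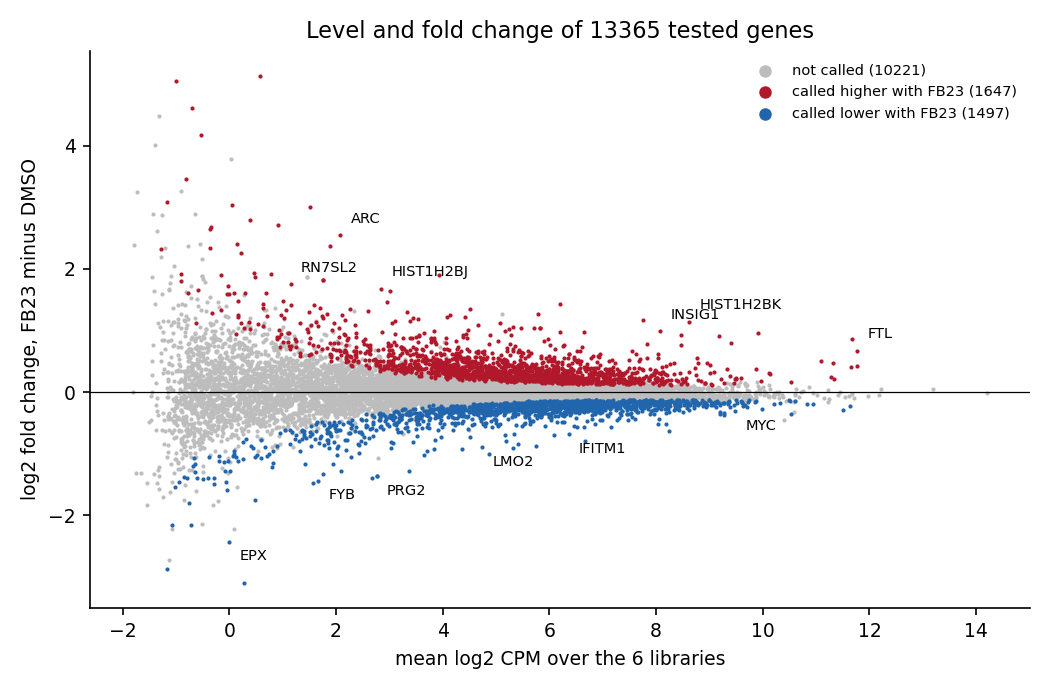
Each point is 1 of the 13365 tested genes, with its mean log2 CPM (x axis) and its log2 fold change, FB23 minus DMSO (y axis). The mean, labelled on the axis as one over 6 libraries, was taken over all 9 libraries of the series. Red points were called higher (1647) and blue points lower (1497). Genes above a mean log2 CPM of about 8 mostly lie within 1 log2 unit of 0, and the labelled genes ARC, HIST1H2BJ, FYB, PRG2 and EPX lie further out at lower levels.

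The histone cluster genes made the largest shift of any list with more than 20 tested members. They encode the proteins that package newly copied DNA. Of 73 in the files, 17 had no count in the 6 libraries and 37 could be tested. 22 of these were higher and 0 lower, with a median log2 fold change of 1.04 against 0.00 over all tested genes. Because a gene could pass the filter on low counts through the group in which it was high, the count over tested members is a description. Their summed level was 1527, 1505 and 1627 TPM with DMSO and 3093, 3212 and 3201 TPM with FB23. Each FB23 library thus held a higher histone total than any DMSO library.

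HIST1H2BK, a core histone H2B gene (chr6:27146418-27146798, minus strand, GRCh38) and the most abundant member, was measured at 681, 681 and 701 TPM with DMSO and 1503, 1557 and 1545 TPM with FB23. The linker histone gene HIST1H1C stood at 202, 197 and 203 TPM with DMSO and 515, 439.6 and 432 TPM with FB23. HIST1H2BJ had 32.9, 28.2 and 32 TPM with DMSO and 88.7, 98.1 and 105 TPM with FB23. In all 3 genes every FB23 library was above every DMSO library, and they rose by 1.14 ± 0.05, 1.17 ± 0.05 and 1.68 ± 0.17 (edgeR adjusted p = 7.9e-10, 1.68e-10 and 5.78e-06). All 5 histone types had called members: 2 of 3 H1 genes, 6 of 11 H2A, 9 of 13 H2B, 2 of 5 H3 and 3 of 5 H4 genes. HIST1H2AC (1.09 ± 0.12), HIST1H2BD (1.35 ± 0.14) and HIST1H3D (1.63 ± 0.20) rose by similar amounts. The pairs HIST2H2AA3 and HIST2H2AA4, and HIST2H4A and HIST2H4B, are near-identical copies with near-identical values, so that each pair is 1 measurement.

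Genes listed as replication-independent variants, whose mRNAs usually carry a poly(A) tail, moved less. H1FX, a linker histone variant, rose by 0.35 ± 0.07, and H2AFZ, an abundant variant of active promoters, stood at 1334, 1351 and 1331 TPM with DMSO and 1430.1, 1436 and 1397 TPM with FB23 with a log2 fold change of 0.07 ± 0.04 that did not pass (edgeR adjusted p = 0.31). SLBP, which binds the histone stem-loop, was not called either (-0.10 ± 0.04, adjusted p = 0.106). Other RNAs that usually lack a poly(A) tail were looked at after the histone values were known. The signal recognition particle RNA RN7SL2 rose by 1.75 ± 0.28 and its near-identical copy RN7SL1 was at 0.15 ± 0.40 (adjusted p = 0.833); their summed level was 322, 251 and 226 TPM with DMSO and 536, 650 and 396 TPM with FB23. RN7SK, also without a tail, was at -0.41 ± 0.64 (adjusted p = 0.7). Counts per gene do not tell which 3' end the histone mRNAs had. Neither that nor the part of tail-less RNA carried through poly(A) selection in the histone result was tested.

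**Figure D2:**
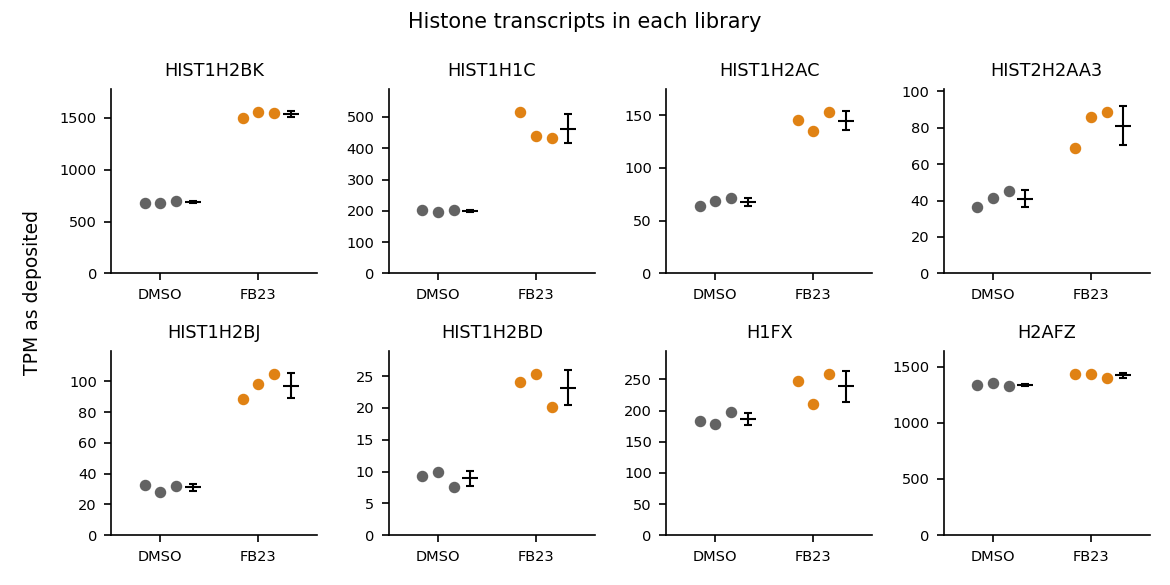
TPM as deposited (y axis, from 0) of 8 histone genes in each of the 3 DMSO and 3 FB23 libraries, with the mean and SD of each group beside the points. The 6 cluster genes lie wholly higher with FB23, HIST1H2BK at 1503 to 1557 against 681 to 701 TPM, while the variant H2AFZ stays between 1331 and 1436 TPM in all 6.

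Promoters of the histone genes share short motifs, shown for 5 called genes because they are what the members have in common beyond their products. The sequences run from 190 bases before the RefSeq start to the base before it (RefSeq promoters, GRCh38.p14). Capitals mark the octamer ATTTGCAT, CCAAT and TATAAA on either strand.
HIST1H2BK, chr6:27146859-27147048, minus strand: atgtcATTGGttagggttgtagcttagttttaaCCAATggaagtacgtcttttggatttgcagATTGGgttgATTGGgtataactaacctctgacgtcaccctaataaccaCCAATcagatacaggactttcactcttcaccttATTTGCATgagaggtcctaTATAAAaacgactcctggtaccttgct
HIST1H2BJ, chr6:27132796-27132985, minus strand: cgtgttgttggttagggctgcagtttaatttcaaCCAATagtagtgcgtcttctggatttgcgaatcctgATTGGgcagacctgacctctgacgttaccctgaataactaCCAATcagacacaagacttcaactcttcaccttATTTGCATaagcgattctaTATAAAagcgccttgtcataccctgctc
HIST1H2BD, chr6:26157931-26158120, plus strand: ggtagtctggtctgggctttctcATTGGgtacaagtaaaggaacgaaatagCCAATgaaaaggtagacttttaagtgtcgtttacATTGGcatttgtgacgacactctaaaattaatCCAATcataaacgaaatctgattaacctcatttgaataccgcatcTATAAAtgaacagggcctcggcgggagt
HIST1H2AC, chr6:26123982-26124171, plus strand: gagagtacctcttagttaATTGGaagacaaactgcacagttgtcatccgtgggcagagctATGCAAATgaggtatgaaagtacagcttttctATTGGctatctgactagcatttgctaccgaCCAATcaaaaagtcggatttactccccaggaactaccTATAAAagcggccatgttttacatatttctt
HIST1H1C, chr6:26056471-26056660, minus strand: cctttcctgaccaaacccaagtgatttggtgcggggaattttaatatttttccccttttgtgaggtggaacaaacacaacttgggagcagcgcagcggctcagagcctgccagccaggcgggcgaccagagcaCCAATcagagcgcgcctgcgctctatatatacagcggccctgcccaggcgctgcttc
In windows of 300 bases (250 before the start and 50 after), the octamer was found in 16 of the 36 tested histone genes with a listed promoter (44.4%), and in 1.8% of all 27305 listed promoters. CCAAT was in 88.9% against 35.7%, and TATAAA in 58.3% against 12%. The H2B genes held most of the octamers, 9 of 12. A match is only a match of letters, and HIST1H2BD and HIST1H1C rose without an octamer in the window.

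Chromatin enzymes changed little beside the histones. The lysine methyltransferase list had 1 (0 to 2) of 30 higher and 6 (2 to 15) lower, with NSD1, a writer of H3K36 methylation, down by 0.32 ± 0.05 and KMT2D, a writer of H3K4 methylation at enhancers, down by 0.23 ± 0.04. Histone deacetylases and sirtuins had 0 (0 to 1) of 18 higher and 2 (1 to 3) lower, and HDAC7 fell by 0.44 ± 0.04, from 46.6, 47.7 and 47.6 TPM to 34.7, 35.1 and 35.7 TPM. No overlap remained between the groups for HDAC7. Among DNA methylation and isocitrate dehydrogenase genes, 5 (2 to 5) of 21 rose and 2 (1 to 7) fell: IDH2 (0.38 ± 0.08) and IDH1 (0.23 ± 0.05), which make 2-oxoglutarate, the co-substrate of FTO and TET enzymes, rose, and TET3, which oxidises methylcytosine, fell by 0.26 ± 0.04. Leaving out single libraries gave 0 to 2 higher among methyltransferases (without DMSO replicate 1, 2 or 3 or FB23 replicate 1, 2 or 3), 1 lower among histone deacetylases (without DMSO replicate 1, 2 or 3 or FB23 replicate 2 or 3), 2 to 3 higher among DNA methylation and IDH genes (without DMSO replicate 2 or FB23 replicate 2) and 1 lower among DNA methylation and IDH genes (without DMSO replicate 1 or 3 or FB23 replicate 2).

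FTO itself was not called. Its level was 13.4, 14.1 and 12.8 TPM with DMSO and 13.1, 13 and 11.9 TPM with FB23, the groups overlapped, and the log2 fold change was -0.10 ± 0.06 (edgeR adjusted p = 0.253). The other m6A demethylase, ALKBH5, stood at 47.4, 48.1 and 47.3 TPM with DMSO and 49.5, 44.8 and 47.5 TPM with FB23 (-0.03 ± 0.05, adjusted p = 0.757), and METTL3, the methyltransferase, at -0.09 ± 0.06 (adjusted p = 0.248). Of 24 writers, erasers and readers 0 (0 to 1) were higher and 5 (0 to 9) lower. IGF2BP1, a reader that stabilises m6A-marked mRNA, fell by 0.19 ± 0.05, a call lost for log2 TPM (-0.17, limma adjusted p = 0.106). Fewer libraries gave 1 higher among m6A genes (without FB23 replicate 3) and 1 to 3 lower among m6A genes (without DMSO replicate 1, 2 or 3 or FB23 replicate 2).

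Ribosome biogenesis was the list with the largest number of falls. These genes make, cut and fold ribosomal RNA in the nucleolus. Of 100 factors 66 were lower (48 to 81 over the other settings) and 1 (0 to 1) higher, with a median of -0.20. The changes were small and regular. MYBBP1A, a nucleolar protein of rRNA processing, stood at 109, 112 and 118 TPM with DMSO and 85.8, 83.5 and 85.3 TPM with FB23 and fell by 0.43 ± 0.05 (edgeR adjusted p = 1.97e-05). RRP9, a component of the U3 snoRNP that starts rRNA cleavage, was measured at 102, 101 and 99.1 TPM with DMSO and 72.3, 78 and 79.9 TPM with FB23 and fell by 0.40 ± 0.06. The helicase DDX21 went from 272, 279 and 273 TPM to 238, 221 and 194 TPM. In each of these 3 genes the groups were apart. The abundant nucleolar proteins NPM1 and NCL fell by 0.18 ± 0.04 and 0.19 ± 0.04, and 9 of 12 DDX and DHX helicases on the list were lower. Dropping 1 library gave 0 higher among ribosome biogenesis factors (without DMSO replicate 1, 2 or 3 or FB23 replicate 3).

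MYC, whose product binds E-boxes, was lower too, at 679, 687 and 681 TPM with DMSO and 566, 559 and 554 TPM with FB23, with no overlap, a fall of 0.30 ± 0.05 (adjusted p = 0.000276). In the MYC, MAX and MXD network 3 of 12 tested genes were higher and 4 (2 to 4) lower, MYC among them. MXD1, which competes with MYC for its partner MAX, rose by 0.28 ± 0.07, and MLXIPL, a glucose-responsive relative, by 0.68 ± 0.15. MNT, of the same network, was called lower, a call lost in settings such as limma-voom (-0.28, limma adjusted p = 0.0556). The lower count was 2 without DMSO replicate 1, 2 or 3 or FB23 replicate 2. The E-box CACGTG, which reads the same on both strands, was in 35.7% of the 84 ribosome biogenesis genes with a listed promoter and in 7.43% of all listed promoters (10.2% of those of tested genes). In 25 of the 30 genes that held it, it lay within 50 bases of the RefSeq start. Short windows around it are shown for 6 of the 7 called genes with the largest falls among those that hold it, with the E-box in capitals (RefSeq promoters, GRCh38.p14).
MYBBP1A, chr17:4555340-4555369, minus strand: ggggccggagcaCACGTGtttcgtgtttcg
RRP9, chr3:51941892-51941921, minus strand: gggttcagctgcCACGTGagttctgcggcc
NLE1, chr17:35142274-35142303, minus strand: ctctttctcctcCACGTGgggacgcaggat
MRTO4, chr1:19251807-19251836, plus strand: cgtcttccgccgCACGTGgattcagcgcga
NOC3L, chr10:94362903-94362932, minus strand: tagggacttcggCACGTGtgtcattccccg
NOL6, chr9:33473894-33473923, minus strand: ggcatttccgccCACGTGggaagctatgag
DHX37, the other of the 7, fell by 0.35 ± 0.04 and holds its E-box too near the end of the listed sequence for such a window. Genes with the E-box had 22 of 30 called lower, with a median of -0.24, and those without it 35 of 54, with a median of -0.19. Most genes of both groups were thus called lower, and a part of MYC in these falls was not tested.

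RNA polymerase I transcribes ribosomal RNA, and RNA polymerase III makes tRNA and 5S RNA. Grouped by gene symbol, all 5 POLR1 genes were lower, against 1 of 16 POLR2 genes and 5 of 10 POLR3 genes. Subunits can be shared between the polymerases, so these groups are of symbols and not of whole enzymes. POLR1A, the large subunit, stood at 50.9, 51.9 and 50.9 TPM with DMSO and 42.1, 42.7 and 40.8 TPM with FB23 and fell by 0.31 ± 0.04. POLR1B and POLR1E fell by 0.25 ± 0.04 and 0.23 ± 0.05. Over the 3 polymerases 11 (5 to 14) of 31 subunits were lower. Left out singly, libraries changed these counts to 5 to 7 lower among polymerase subunits (without DMSO replicate 1, 2 or 3 or FB23 replicate 2).

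snoRNA host genes, whose introns carry the guide RNAs of rRNA modification, fell in the same direction. Of 22 tested genes on this list 11 were lower and 1 higher, with a median of -0.25. SNHG15 was measured at 156, 161 and 150.5 TPM with DMSO and 101, 112 and 117 TPM with FB23 and DANCR at 697, 651 and 697 TPM with DMSO and 503, 496 and 511 TPM with FB23, and they fell by 0.50 ± 0.08 and 0.46 ± 0.07. ZFAS1, SNHG16 and SNHG17 fell by 0.31 ± 0.05, 0.35 ± 0.05 and 0.39 ± 0.08. The 1 higher member was MALAT1, which was listed with these genes but is not a snoRNA host gene. It is a nuclear RNA with a processed 3' end in place of a poly(A) tail, and it rose by 0.56 ± 0.09.

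Few genes for the proteins of the finished ribosome were called. Of 84 cytosolic ribosomal protein genes 1 (1 to 6) was higher, the p53 target RPS27L (0.41 ± 0.09), and 3 (0 to 48) were lower, with a median of -0.08. The lower count depended on single libraries and on the model. It was 26 without FB23 replicate 3, 0 without DMSO replicate 1 or 2, 1 without FB23 replicate 1 and 48 with GC and length trends removed. Without FB23 replicate 1 the median also changed sign and 6 genes were higher. Proteasome subunits had 0 (0 to 2) of 46 higher and 1 (0 to 6) lower. In the respiratory chain 1 (1 to 7) of 82 was higher and 5 (1 to 25) lower. Among mitochondrial ribosomal proteins 6 (2 to 6) of 77 rose and 13 (7 to 30) fell, led by MRPL20 at -0.34 ± 0.06 and MRPS12 at -0.31 ± 0.07. Omitting a library gave 2 to 4 lower among proteasome genes (without FB23 replicate 1 or 3), 2 to 7 higher among respiratory chain genes (without FB23 replicate 1 or 2), 1 to 10 lower among respiratory chain genes (without DMSO replicate 1 or 2 or FB23 replicate 1, 2 or 3), 2 to 3 higher among mitochondrial ribosomal proteins (without DMSO replicate 1, 2 or 3 or FB23 replicate 2) and 7 to 21 lower among mitochondrial ribosomal proteins (without DMSO replicate 1 or 2 or FB23 replicate 2 or 3).

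Translation factors fell more often than they rose. Of 51 initiation factors 11 (4 to 26) were lower, among them the scaffold EIF4G1 at -0.28 ± 0.04 and EIF3A at -0.18 ± 0.04, and 2 (2 to 4) were higher, among them EIF4EBP2, a repressor of cap-dependent initiation, at 0.32 ± 0.04. Aminoacyl-tRNA synthetases had 2 of 36 higher and 9 (3 to 18) lower. Leaving out single libraries gave 4 to 6 lower among initiation factors (without DMSO replicate 1 or 2 or FB23 replicate 2), 4 higher among initiation factors (without FB23 replicate 3) and 4 to 5 lower among aminoacyl-tRNA synthetases (without DMSO replicate 1 or 2 or FB23 replicate 2).

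Nucleotide and folate supply showed a similar tilt. In the purine, pyrimidine and folate list 17 of 49 enzymes and transporters were lower and 2 higher. SLC19A1, the reduced folate carrier, stood at 92.9, 93.8 and 101 TPM with DMSO and 67.1, 70.3 and 73.8 TPM with FB23 and fell by 0.45 ± 0.06. DHODH, the mitochondrial step of pyrimidine synthesis, fell by 0.41 ± 0.08, PFAS, a purine synthesis enzyme, by 0.35 ± 0.04 and MTHFD1L, a mitochondrial folate enzyme, by 0.29 ± 0.05. The 2 that rose, RRM2 (0.47 ± 0.04) and TK1 (0.33 ± 0.06), provide deoxynucleotides for S phase.

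Splicing and chaperone genes were also more often lower. 24 (11 to 38) of 62 core splicing factors and SR proteins were lower and 2 (1 to 3) higher, with a median of -0.11. HNRNPH1, which binds G-rich sites next to splice sites, went from 352, 352 and 349 TPM to 309, 295 and 265 TPM, a fall of 0.30 ± 0.04, and DHX15, a helicase that takes spliceosomes apart, fell by 0.27 ± 0.05. Heat shock chaperones had 17 of 40 lower and 5 (3 to 6) higher. The 2 cytosolic HSP90 genes parted: the inducible HSP90AA1 was at 875, 884 and 846 TPM with DMSO and 1308, 1268 and 1162 TPM with FB23 and rose by 0.50 ± 0.04, and the constitutive HSP90AB1 was at 2476, 2464 and 2419 TPM with DMSO and 2130.2, 2062 and 1911 TPM with FB23 and fell by 0.29 ± 0.04. Both had groups that did not overlap. DNAJB1, a co-chaperone induced with HSP90AA1 in heat shock, rose by 0.31 ± 0.04, while CRYAB, a small heat shock protein, fell by 1.59 ± 0.31 from a low level, 2.94, 4.33 and 4.2 TPM with DMSO and 0.81, 1.31 and 1.4 TPM with FB23. Fewer libraries gave 11 to 14 lower among splicing factors (without DMSO replicate 1 or 2), 1 higher among splicing factors (without DMSO replicate 1, 2 or 3 or FB23 replicate 2) and 3 higher among heat shock chaperones (without DMSO replicate 1, 2 or 3).

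**Figure D3:**
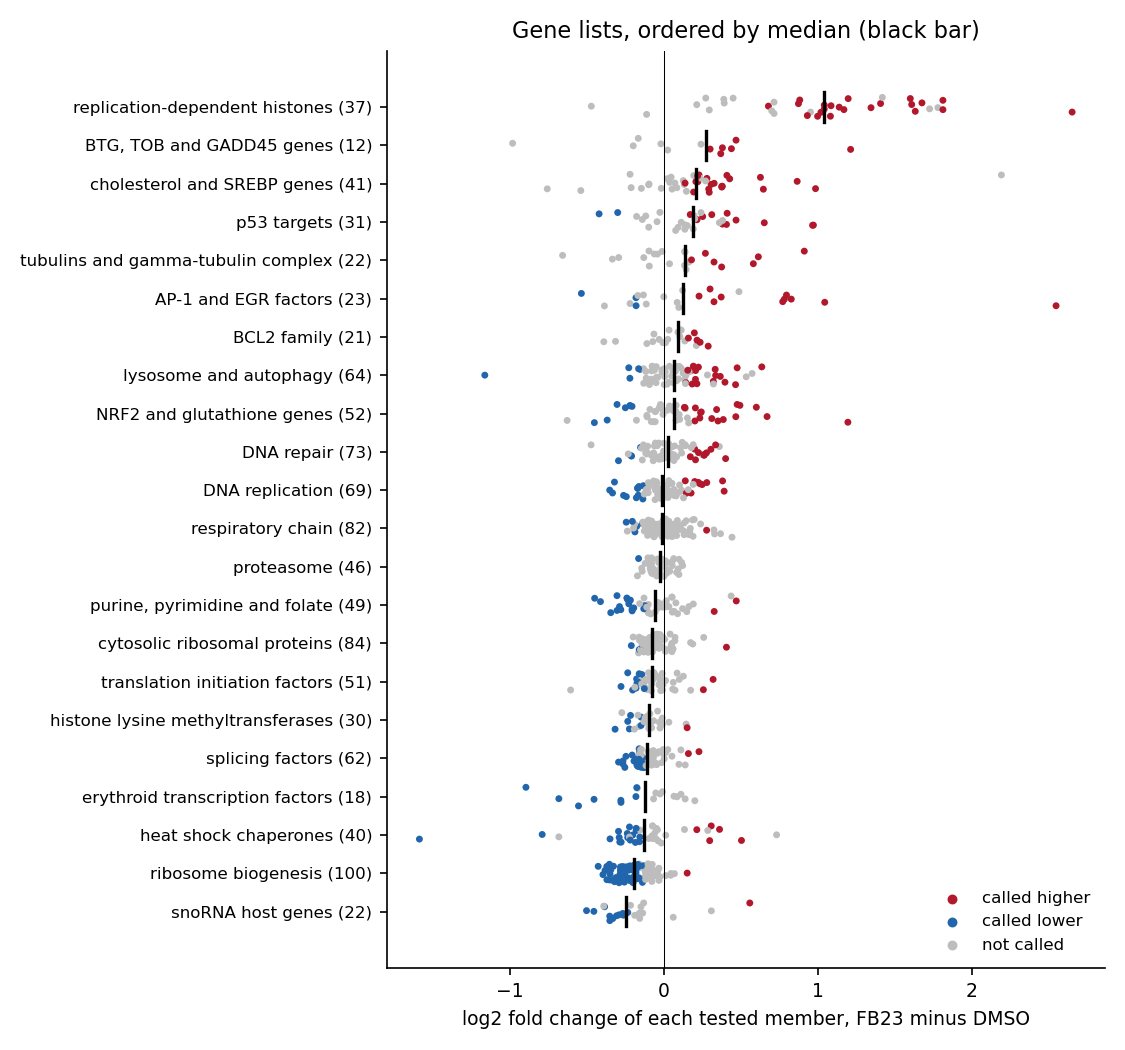
Each point is 1 tested gene, placed by its log2 fold change, FB23 minus DMSO (x axis), in the row of its list (y axis, with the number tested). Red points were called higher, blue lower and grey not called, and the black bar is the median of the list. Replication-dependent histones stand at the top with a median of 1.04, and ribosome biogenesis (-0.20) and snoRNA host genes (-0.25) at the bottom, while proteasome and respiratory chain genes sit near 0.

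Several immediate-early genes, which growth factor and stress signals switch on within minutes, were higher at 48 h. In the AP-1 and EGR list 10 of 23 rose and 3 (1 to 4) fell. FOS (chr14:75278774-75282230, plus strand, GRCh38) was measured at 7.93, 4.61 and 3.97 TPM with DMSO and 13.4, 12.3 and 9.68 TPM with FB23, JUN at 33.3, 31.4 and 32.7 TPM with DMSO and 58.5, 53.2 and 57.7 TPM with FB23 and EGR1 at 76.1, 69.9 and 71.2 TPM with DMSO and 125, 124 and 126 TPM with FB23. All FB23 libraries exceeded all DMSO libraries for the 3 genes, and the rises were 1.04 ± 0.17, 0.78 ± 0.06 and 0.77 ± 0.06 (edgeR adjusted p = 0.000381, 1.29e-07 and 1.29e-07). JUND (0.80 ± 0.09) and ATF3 (0.83 ± 0.10), a stress-induced partner of JUN, rose by like amounts. ARC, an immediate-early gene best known from neurons, rose by 2.55 ± 0.49 from a very low level, 0.03, 0.03 and 0.13 TPM with DMSO and 0.61, 0.34 and 0.31 TPM with FB23. Not all members went the same way: FOSL1, a FOS relative of sustained ERK signalling, stood at 14.4, 12.8 and 14.5 TPM with DMSO and 8.37, 8.99 and 11 TPM with FB23 and fell by 0.54 ± 0.12. KLF2 and KLF6, zinc-finger factors that are also induced early, rose by 1.05 ± 0.21 and 0.39 ± 0.07, while KLF9 and KLF16 fell by 0.33 ± 0.06 and 0.28 ± 0.05. Dropping 1 library gave 1 lower among AP-1 and EGR genes (without DMSO replicate 1 or 3 or FB23 replicate 2).

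Feedback inhibitors of cytokine signalling were among the higher genes. STAT5 induces CISH and the SOCS genes, whose products then dampen the receptors. SOCS1 stood at 55.1, 52.6 and 55.1 TPM with DMSO and 89.3, 85.7 and 92.5 TPM with FB23, SOCS2 at 85.6, 87.5 and 81.7 TPM with DMSO and 129, 125 and 115 TPM with FB23 and CISH at 74.6, 71.6 and 79.8 TPM with DMSO and 104, 109 and 113 TPM with FB23. The groups were apart in each, with rises of 0.70 ± 0.06, 0.51 ± 0.05 and 0.52 ± 0.06, and SOCS3 rose by 0.33 ± 0.07. STAT5A itself was measured at 150.1, 154 and 157 TPM with DMSO and 125, 125 and 121 TPM with FB23 and fell by 0.33 ± 0.04 (adjusted p = 1.98e-05). Over the whole STAT5 list 7 of 19 rose and 3 (1 to 4) fell. Left out singly, libraries changed these counts to 1 lower among STAT5 list genes (without DMSO replicate 1 or 3 or FB23 replicate 2).

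Among feedback genes of the ERK pathway 8 (5 to 9) of 27 rose and 2 (1 to 4) fell. DUSP10, a phosphatase of JNK and p38 kinases, went from 6.51, 5.87 and 5.54 TPM to 8.7, 8.49 and 8.91 TPM, a rise of 0.53 ± 0.09, and ETV5, a transcription factor induced by ERK, rose by 0.36 ± 0.06. DUSP7 fell by 0.25 ± 0.06. Omitting a library gave 5 higher among ERK feedback genes (without FB23 replicate 3) and 1 lower among ERK feedback genes (without DMSO replicate 1, 2 or 3 or FB23 replicate 2).

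Several genes of growth arrest and of the p53 response were higher. In the BTG, TOB and GADD45 list, which also holds the sestrins, 6 of 12 rose and 0 (0 to 1) fell, with a median of 0.27. SESN3, a sestrin that restrains mTORC1, rose by 1.21 ± 0.14 from 0.5, 0.78 and 0.54 TPM to 1.66, 1.39 and 1.35 TPM. BTG1, BTG2 and GADD45A rose by 0.37 ± 0.05, 0.38 ± 0.05 and 0.30 ± 0.06. Of 31 p53 genes and targets 11 rose and 2 (1 to 4) fell. SERTAD1, a cofactor of E2F1, rose by 0.65 ± 0.08 and TP53I3, an oxidoreductase, by 0.41 ± 0.10, whereas AEN, a nuclease of apoptosis, fell by 0.42 ± 0.05. Leaving out single libraries gave 1 lower among p53 list genes (without DMSO replicate 1 or 2).

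Of 12 CDK inhibitors and D-type cyclins, which act at the G1 step of the cell cycle, 3 were higher and 2 (1 to 5) lower, with a median of 0.01. CDKN1A, the inhibitor p21 and a p53 target (chr6:36676460-36687339, plus strand, GRCh38), was measured at 1.38, 1.77 and 1.62 TPM with DMSO and 3.38, 3.24 and 2.97 TPM with FB23 and rose by 0.97 ± 0.14. CCND1, cyclin D1, which drives entry into S phase, stood at 6.81, 6.28 and 7.7 TPM with DMSO and 4.22, 3.64 and 3.38 TPM with FB23 and fell by 0.93 ± 0.09. Neither gene had overlapping groups, and both were expressed at a few TPM. Replication genes went both ways, 10 (4 to 12) of 69 higher and 12 (6 to 19) lower, but 5 of the 6 subunits of the MCM2 to MCM7 helicase were lower, with MCM5 down by 0.35 ± 0.05 and MCM2 by 0.32 ± 0.06. ASF1B, a histone chaperone of replication, rose by 0.38 ± 0.05. In mitosis genes 7 (1 to 8) of 63 were higher and 7 (2 to 19) lower, and the mitotic kinase PLK1 fell by 0.32 ± 0.04. Fewer libraries gave 1 lower among CDK inhibitors and D-type cyclins (without DMSO replicate 1, 2 or 3 or FB23 replicate 2 or 3), 4 to 5 higher among replication genes (without DMSO replicate 1, 2 or 3 or FB23 replicate 2), 6 to 7 lower among replication genes (without DMSO replicate 1 or FB23 replicate 2), 1 to 4 higher among mitosis genes (without DMSO replicate 1, 2 or 3 or FB23 replicate 1 or 2) and 2 to 4 lower among mitosis genes (without DMSO replicate 1, 2 or 3 or FB23 replicate 2 or 3).

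Of 73 DNA repair genes 11 (3 to 17) were higher and 4 (2 to 12) lower, or 20.5% called, and 3 and 4 without DMSO replicate 1, with NEIL3, a glycosylase of oxidised bases, at 0.40 ± 0.07 and RAD50, of the break-sensing MRN complex, at -0.30 ± 0.05. In the BCL2 family 5 (2 to 6) of 21 rose and 0 (0 to 1) fell, and the rises included the survival gene MCL1 (0.23 ± 0.05) and the mitophagy receptor BNIP3 (0.29 ± 0.06). Caspases, the apoptosome and IAP genes had 2 (0 to 5) of 23 higher and 3 (0 to 6) lower. Dropping 1 library gave 3 to 7 higher among repair genes (without DMSO replicate 1, 2 or 3 or FB23 replicate 1 or 2), 2 lower among repair genes (without DMSO replicate 3), 2 to 3 higher among BCL2 family genes (without DMSO replicate 1 or 3 or FB23 replicate 1 or 2), 0 to 1 higher among caspase list genes (without DMSO replicate 1, 2 or 3 or FB23 replicate 2) and 0 to 1 lower among caspase list genes (without DMSO replicate 1, 2 or 3 or FB23 replicate 2).

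**Figure D4:**
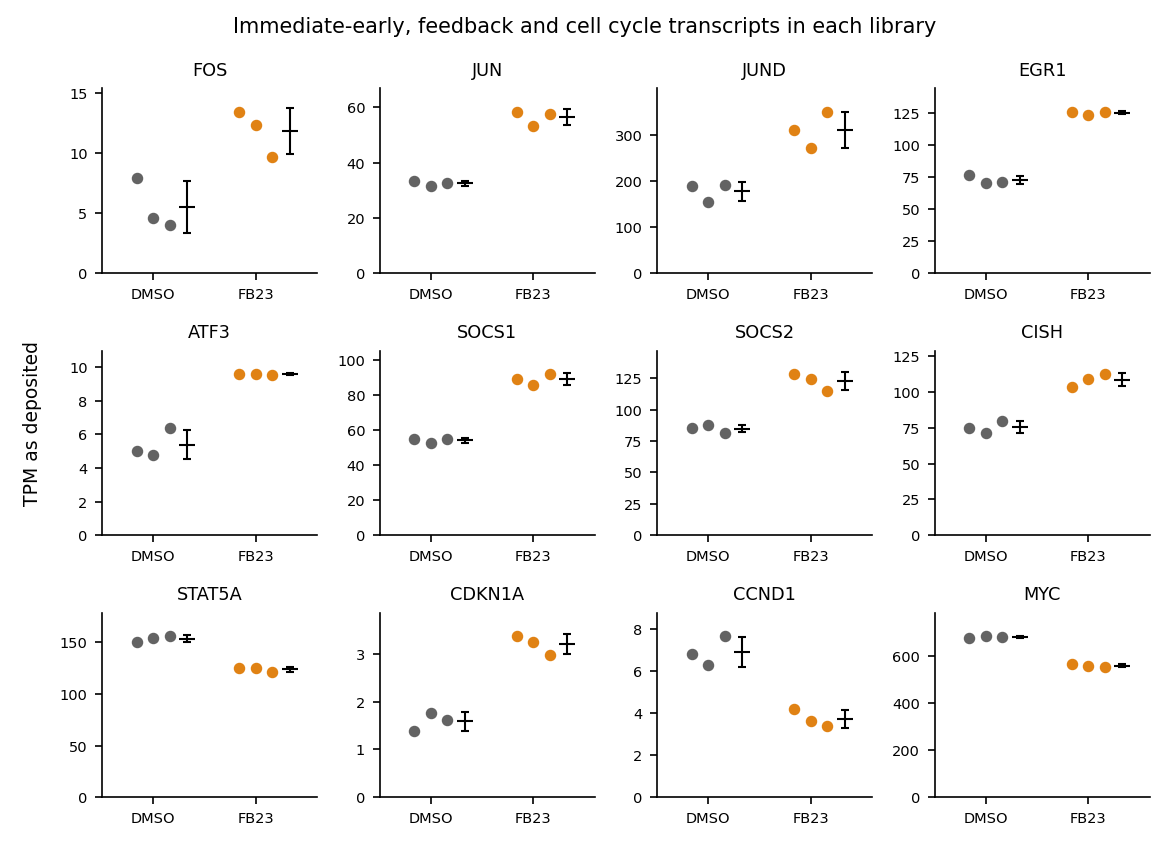
TPM as deposited (y axis, from 0) of 12 signalling and cell cycle genes in each library, with the mean and SD of each group beside its 3 points. FOS, JUN, JUND, EGR1, ATF3, SOCS1, SOCS2, CISH and CDKN1A lie higher in all FB23 libraries, and STAT5A, CCND1 and MYC lie lower.

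Many sterol genes were higher. Of 41 genes of cholesterol synthesis, uptake and SREBP control 20 were higher and 0 (0 to 5) lower, with a median of 0.21; with trends on GC content and length removed 5 were lower. INSIG1, the sterol-dependent anchor of SREBP (chr7:155297776-155310235, plus strand, GRCh38), was measured at 33.9, 32.7 and 36.2 TPM with DMSO and 69.1, 67.2 and 68.9 TPM with FB23. TM7SF2, a sterol reductase, stood at 18.7, 18.1 and 19.9 TPM with DMSO and 34.2, 31.7 and 37.6 TPM with FB23 and IDI1, an isoprenoid isomerase, at 47.4, 56.6 and 53.3 TPM with DMSO and 86.3, 84.9 and 75 TPM with FB23. No FB23 value overlapped a DMSO value in these 3 genes, and they rose by 0.98 ± 0.05, 0.87 ± 0.08 and 0.63 ± 0.06 (edgeR adjusted p = 1.65e-09, 2.27e-06 and 1.14e-06). Called rises included several steps of the route: HMGCS1, an entry enzyme, by 0.28 ± 0.05, MVK and MVD, of the mevalonate steps, by 0.38 ± 0.07 and 0.43 ± 0.07, and SQLE and LSS, which make the sterol rings, by 0.21 ± 0.05 and 0.29 ± 0.05. Left out singly, libraries changed these counts to 2 lower among sterol genes (without FB23 replicate 3).

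Lysosomal sterol export was part of this pattern, with NPC2 at 29.2, 28.8 and 21.4 TPM with DMSO and 42.8, 43.1 and 40.1 TPM with FB23, a rise of 0.65 ± 0.10, and NPC1 up by 0.29 ± 0.05. SREBF1, one of the SREBP genes, was not called (-0.15 ± 0.05, adjusted p = 0.058). The sterol regulatory element TCACNCCAC was found in 1 of 34 listed promoters of these genes (2.94%, against 1.15% of all), which says only that these letters were not in these windows. Fatty acid genes had 6 of 25 higher and 3 (1 to 3) lower: ACSL1 and ACSS2, which activate fatty acids and acetate in the cytosol, rose by 0.69 ± 0.07 and 0.52 ± 0.06, while the mitochondrial ACSS1 fell by 0.60 ± 0.11. Omitting a library gave 1 lower among fatty acid genes (without DMSO replicate 1).

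Iron genes split by function. The storage genes were higher: FTL, the ferritin light chain (chr19:48965301-48966878, plus strand, GRCh38), stood at 6809.9, 6323 and 6304 TPM with DMSO and 10888, 10065 and 10480.0 TPM with FB23, and FTH1, the heavy chain, at 2993, 2952 and 2979 TPM with DMSO and 4237, 4088 and 4170.5 TPM with FB23. Uptake and export genes were lower: TFRC, the transferrin receptor, was measured at 546, 572 and 552 TPM with DMSO and 471, 455 and 400.3 TPM with FB23, and SLC40A1, the iron exporter ferroportin, at 25.4, 27.4 and 26.6 TPM with DMSO and 20.3, 18.7 and 17.5 TPM with FB23. All 4 genes had groups apart, with rises of 0.67 ± 0.05 and 0.47 ± 0.04 and falls of 0.35 ± 0.05 and 0.51 ± 0.05 (edgeR adjusted p = 1.89e-07, 2.3e-06, 9.07e-05 and 7.2e-06). TFR2, a second transferrin receptor, and STEAP3, which reduces iron in endosomes, fell by 0.38 ± 0.05 and 0.32 ± 0.07, and FBXL5, which degrades the iron regulatory protein IRP2, rose by 0.29 ± 0.07. In all 3 of 24 iron genes were higher and 6 lower. NCOA4, which delivers ferritin to the lysosome, was not called (0.12 ± 0.05, adjusted p = 0.0786).

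Ferritin genes are also targets of NRF2, the oxidative stress factor, and that list had 17 of 52 members higher and 7 (4 to 10) lower. OSGIN1, an oxidative stress response gene, rose by 1.20 ± 0.12, NQO1, a quinone reductase, by 0.49 ± 0.06 and GCLM, of glutathione synthesis, by 0.35 ± 0.06. AKR1C1, AKR1C2 and AKR1C3 rose by 0.34 ± 0.05, 0.39 ± 0.08 and 0.60 ± 0.11, but reads may be split among these aldo-keto reductases, which are close paralogs. Catalase, CAT, fell by 0.25 ± 0.05, KEAP1, which holds NRF2 down, by 0.22 ± 0.05 and RPIA, of the pentose phosphate path, by 0.37 ± 0.05. Leaving out single libraries gave 4 lower among NRF2 list genes (without DMSO replicate 2 or 3).

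Lysosome and autophagy genes were higher in 17 of 64 and lower in 5 (3 to 9). GAA, the acid glucosidase, was measured at 11.2, 11.9 and 11.7 TPM with DMSO and 17.8, 17.9 and 18.7 TPM with FB23 and rose by 0.64 ± 0.07. SQSTM1, an autophagy receptor that is also an NRF2 target, went from 50.7, 52 and 48.7 TPM to 71.9, 70.8 and 70.1 TPM, a rise of 0.48 ± 0.05. NEU1 and GRN, a sialidase and progranulin, rose by 0.46 ± 0.05 and 0.37 ± 0.08, and the autophagosome proteins MAP1LC3B and GABARAPL1 by 0.33 ± 0.06 and 0.34 ± 0.08. Some proteases and membrane proteins went down: CTSS, cathepsin S of antigen-presenting cells, fell by 1.17 ± 0.17, from 1.55, 1.9 and 1.95 TPM to 0.72, 0.85 and 0.81 TPM, and LAMP1, an abundant membrane protein, fell by 0.22 ± 0.05. Fewer libraries gave 3 lower among lysosome genes (without DMSO replicate 1 or FB23 replicate 2).

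Glucose metabolism genes were called in both directions. Of 32 glycolysis and pyruvate genes 7 were higher and 10 (8 to 17) lower. HK2, the regulated hexokinase, stood at 36.5, 37.1 and 38.6 TPM with DMSO and 28.8, 28.6 and 27.6 TPM with FB23 and fell by 0.42 ± 0.05, with HK1 down by 0.34 ± 0.04, PKLR, the pyruvate kinase of liver and red cells, by 0.54 ± 0.04 and LDHA, lactate dehydrogenase, by 0.21 ± 0.04. ALDOC, a minor aldolase, rose by 0.66 ± 0.08 and PKM, the main pyruvate kinase, by 0.29 ± 0.05. TXNIP, which restrains glucose uptake and is induced by glucose, was at 63.1, 69.1 and 68.2 TPM with DMSO and 102, 100.4 and 95.6 TPM with FB23, and its relative ARRDC4 at 4.81, 5.12 and 6.22 TPM with DMSO and 8.35, 7.92 and 8.34 TPM with FB23. Both were higher in every FB23 library, with rises of 0.55 ± 0.05 and 0.60 ± 0.08. Of 34 hypoxia genes 11 (6 to 11) were higher and 4 (2 to 5) lower, with HIF1A, the oxygen-regulated subunit, at 0.24 ± 0.06 and the glycolytic regulators PFKFB3 and PFKFB4 at -0.25 ± 0.07 and -0.30 ± 0.07. Dropping 1 library gave 6 higher among hypoxia genes (without DMSO replicate 1) and 2 lower among hypoxia genes (without DMSO replicate 1 or 2 or FB23 replicate 2).

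Polyamine and amino acid genes were called in both directions. Of 15 polyamine genes 4 were higher and 3 (2 to 5) lower. SAT1, which acetylates spermidine and spermine for export or breakdown, was measured at 16.1, 17.9 and 16.1 TPM with DMSO and 31.1, 29.3 and 27.6 TPM with FB23 and rose by 0.78 ± 0.09, and AZIN1, an inhibitor of antizyme, fell by 0.32 ± 0.05. Of 23 amino acid transporters 4 (2 to 6) were higher and 8 lower: SLC7A5, the leucine transporter, fell by 0.24 ± 0.05 and SLC38A5, a glutamine transporter, by 0.52 ± 0.05. Integrated stress response genes had 7 (4 to 9) of 32 higher and 6 (3 to 7) lower, with ASNS, asparagine synthetase, at 0.35 ± 0.05 and STC2, a secreted stress protein, at -0.88 ± 0.17. Of 22 zinc transporters and metallothioneins 3 (1 to 3) were higher and 6 (2 to 9) lower, with the importer SLC39A1 at -0.22 ± 0.04. In the SLC25 family of mitochondrial carriers 6 (3 to 10) of 43 rose and 4 fell, with the ATP carrier SLC25A4 at 0.52 ± 0.05, the citrate carrier SLC25A1 at 0.45 ± 0.07 and the aspartate carrier SLC25A12 at -0.47 ± 0.07. Left out singly, libraries changed these counts to 2 higher among amino acid transporters (without DMSO replicate 1), 4 higher among stress response genes (without DMSO replicate 1), 3 lower among zinc genes (without DMSO replicate 1) and 3 higher among SLC25 carriers (without DMSO replicate 3 or FB23 replicate 3).

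Several blood lineage factors were lower. Of 18 transcription factors of red cell precursors 0 (0 to 1) were higher and 8 (5 to 11) lower. LMO2, a bridging factor of the GATA1 complex (chr11:33858576-33892289, minus strand, GRCh38), stood at 34, 33.5 and 32.4 TPM with DMSO and 18, 17.4 and 18.6 TPM with FB23, IKZF1, Ikaros, at 14.9, 15.9 and 15.2 TPM with DMSO and 10.4, 9.74 and 8.97 TPM with FB23 and MYB, a progenitor factor, at 80.7, 86.2 and 83 TPM with DMSO and 66.2, 62.3 and 56.6 TPM with FB23. The FB23 libraries were the lower ones throughout, with falls of 0.90 ± 0.07, 0.68 ± 0.06 and 0.46 ± 0.05 (edgeR adjusted p = 1.83e-07, 6.14e-07 and 8.83e-06). GFI1B and LDB1, which also act with GATA1, fell by 0.28 ± 0.06 and 0.28 ± 0.05. GATA1 itself was at 286, 279 and 281 TPM with DMSO and 267, 271 and 285 TPM with FB23 and was not called (-0.05 ± 0.05, adjusted p = 0.492), nor was KLF1 (-0.17 ± 0.07, adjusted p = 0.0678). Omitting a library gave 1 higher among erythroid factors (without FB23 replicate 2).

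Red cell products did not follow these factors as 1 block. ALAS2, which opens haem synthesis in erythroid cells, went from 78.6, 78.5 and 80.8 TPM to 112, 111 and 118 TPM, a rise of 0.51 ± 0.05. Of 8 globin genes 2 (0 to 5) were higher and 1 lower. The alpha globin HBA2 was at 1859, 1749.5 and 1979 TPM with DMSO and 2355, 2443 and 2701 TPM with FB23 and rose by 0.40 ± 0.10 (adjusted p = 0.00618), and its near-identical copy HBA1, between which reads may be split, was at 0.26 ± 0.09 (adjusted p = 0.0492), a call lost in 9 of the 18 other settings; that of HBA2 was lost with DESeq2 (0.39, adjusted p = 0.0521). The minor globin HBD fell by 1.14 ± 0.21, from 11, 14.2 and 10.6 TPM to 6.8, 5.61 and 4.66 TPM. HBG2 was at 0.16 ± 0.07 (adjusted p = 0.113) and HBZ, embryonic globin, at 0.13 ± 0.07 (adjusted p = 0.233); their TPM were higher in every FB23 library, while their scaled counts overlapped. Membrane and skeleton genes had 3 (1 to 4) of 31 higher and 7 (5 to 12) lower: ADD2, beta adducin, was measured at 12.2, 13 and 12.4 TPM with DMSO and 6.53, 6.86 and 6.49 TPM with FB23 and fell by 0.93 ± 0.07, with no overlap. HEMGN, a nuclear protein of red cell precursors, fell by 0.56 ± 0.05. Leaving out single libraries gave 1 to 5 higher among globin genes (without DMSO replicate 1, 2 or 3 or FB23 replicate 1, 2 or 3) and 1 higher among membrane and skeleton genes (without DMSO replicate 1 or 3).

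Some myeloid and progenitor genes fell as well. ITGAM, the integrin CD11b, fell by 0.81 ± 0.11 from 4.2, 4.66 and 4.49 TPM to 2.35, 2.99 and 2.27 TPM, and FCGR2A, an Fc receptor, by 0.47 ± 0.11. PRG2 and EPX, eosinophil granule proteins, fell by 1.37 ± 0.12 and 2.43 ± 0.29, PRG2 from 14.7, 13.3 and 14.2 TPM to 5.66, 5.68 and 5.21 TPM. Myeloid maturation markers had 2 (0 to 2) of 11 tested members higher and 5 (3 to 6) lower. Only 6 of 19 promyelocyte granule and progenitor genes could be tested, with 1 higher and 2 lower. EPX was a member that fell, and SERPINB1, a protease inhibitor of granulocytes, rose by 0.51 ± 0.05. Retinoid genes had 0 of 8 higher and 4 (1 to 4) lower, and RARA fell by 0.32 ± 0.09 (7.65, 7.47 and 7.55 TPM with FB23 against 9.22, 9.38 and 9.46 TPM with DMSO), a call lost without FB23 replicate 2 (-0.30, edgeR adjusted p = 0.0585) and with every library thinned to the smallest total (-0.25, adjusted p = 0.115). Fewer libraries gave 0 to 1 higher among myeloid maturation markers (without DMSO replicate 1 or 2 or FB23 replicate 2 or 3) and 3 lower among myeloid maturation markers (without DMSO replicate 1 or 3 or FB23 replicate 1 or 2).

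Progenitor transcription factors were lower in 10 (6 to 12) and higher in 5 (2 to 5) of 27. ZBTB16, a repressor of progenitor cells, fell by 0.85 ± 0.16 and MECOM by 0.33 ± 0.07, and ID3, which blocks basic helix-loop-helix factors, stood at 10.2, 12 and 11 TPM with DMSO and 17.2, 20.5 and 24.2 TPM with FB23 and rose by 0.93 ± 0.13. The list of LIN28, HMGA and fetal genes had 6 of 7 tested members lower and 0 higher. DLK1, a growth factor of fetal tissue, fell by 0.44 ± 0.06, its imprinted neighbour MEG3 by 0.25 ± 0.05 and LIN28B, which blocks let-7 microRNA, by 0.28 ± 0.05. HOX genes had 0 (0 to 1) of 22 higher and 4 (2 to 7) lower, with HOXC9 at -0.44 ± 0.09. Dropping 1 library gave 6 lower among progenitor factors (without FB23 replicate 2), 3 higher among progenitor factors (without DMSO replicate 2 or FB23 replicate 3), 1 higher among HOX genes (without FB23 replicate 2) and 2 lower among HOX genes (without DMSO replicate 1 or FB23 replicate 2).

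Epithelial and mesenchymal genes were expressed in these cells and some moved. EPCAM, an epithelial adhesion protein, was measured at 71.2, 77.5 and 71.7 TPM with DMSO and 57.7, 55.1 and 49.8 TPM with FB23 and fell by 0.46 ± 0.05, KRT19 fell by 0.41 ± 0.07, and KRT8 rose by 0.37 ± 0.06. VIM, vimentin, and FN1, fibronectin, rose by 0.25 ± 0.06 and 0.54 ± 0.04, and VIM reached 1221, 1238 and 1286 TPM with FB23 from 1026, 1018 and 1067 TPM. The list of fibroblast, endothelial and lymphoid markers, which holds VIM and FN1, had 4 of 23 members with no count and 5 tested, and summed to 1052, 1045 and 1092 TPM with DMSO and 1256, 1274 and 1316 TPM with FB23. In that list COL1A1, a collagen, was at 1.03, 0.85 and 0.86 TPM with DMSO and 0.78, 1.04 and 0.95 TPM with FB23 and CD3D, a T cell receptor chain, at 4.81, 6.54 and 4.29 TPM with DMSO and 4.54, 4.68 and 3.85 TPM with FB23, and neither was called. The fibroblast genes COL1A2, COL3A1, DCN and LUM and the lymphoid genes CD3G and MS4A1 were at or near 0, at most 0.04 TPM in any of the 6 libraries, and the part of other cell types in these values was not tested. Tubulin and gamma-tubulin complex genes had 7 (4 to 9) of 22 higher and 0 (0 to 3) lower: TUBA1A, an alpha-tubulin known from neurons, was at 36.2, 35.4 and 34.4 TPM with DMSO and 63.6, 65.8 and 71.1 TPM with FB23 and rose by 0.91 ± 0.06, and TUBB2A, TUBB2B and TUBB4B rose by 0.61 ± 0.09, 0.58 ± 0.10 and 0.37 ± 0.05. Left out singly, libraries changed these counts to 4 higher among tubulin list genes (without DMSO replicate 2).

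**Figure D5:**
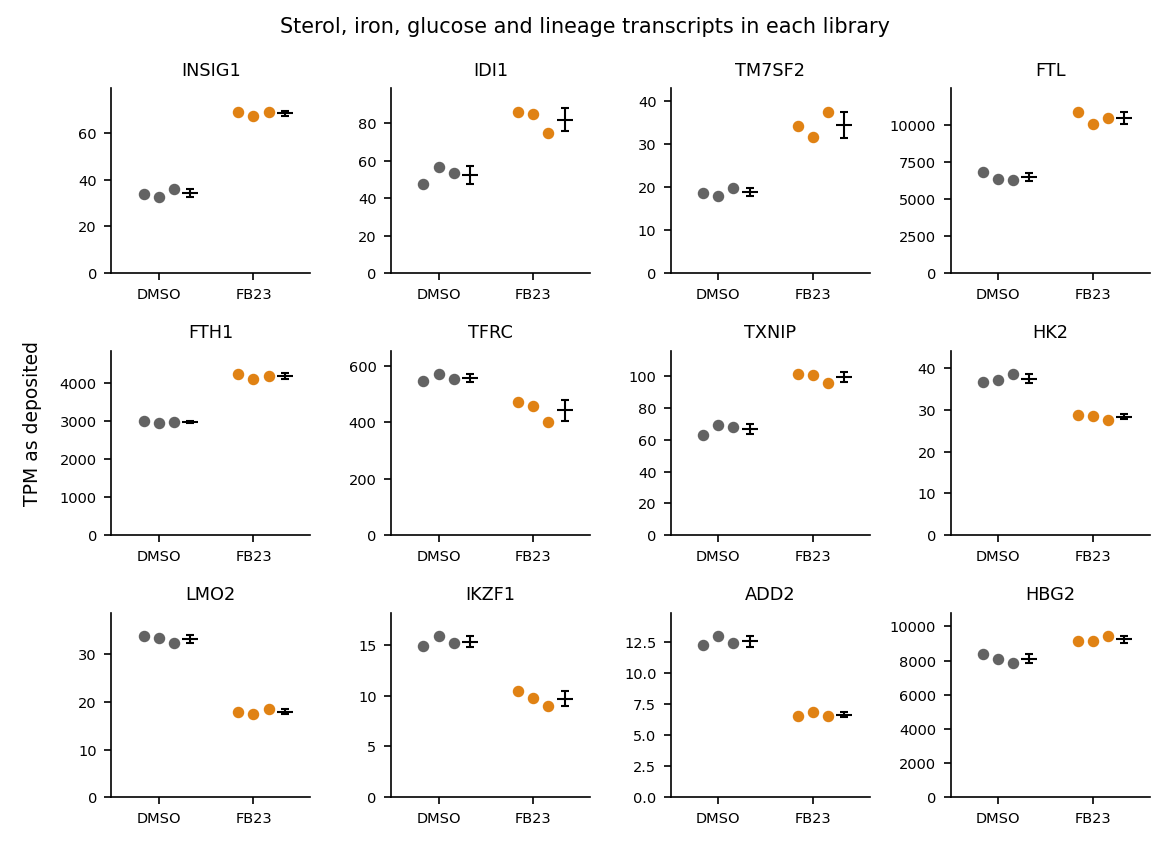
TPM as deposited (y axis, from 0) of 12 sterol, iron, glucose and lineage genes in each library, with the mean and SD of each group beside its 3 points. INSIG1, IDI1, TM7SF2, FTL, FTH1 and TXNIP lie higher in all FB23 libraries and TFRC, HK2, LMO2, IKZF1 and ADD2 lower. HBG2, between 7849 and 9462 TPM, is also higher in all FB23 libraries on this scale but was not called in the test on counts.

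Immune signalling genes moved in both directions. Of 39 interferon-stimulated genes and receptors 8 (4 to 9) were higher and 5 (1 to 7) lower. IFITM1, a membrane protein that blocks virus entry, was measured at 470.3, 482 and 512 TPM with DMSO and 297, 308 and 319 TPM with FB23 and fell by 0.68 ± 0.07, whereas IFI6, a mitochondrial interferon-induced protein, stood at 11.8, 7.63 and 10.2 TPM with DMSO and 13.4, 17.5 and 20.5 TPM with FB23 and rose by 0.87 ± 0.18. Neither had overlapping groups. NF-kB components and targets had 2 (1 to 2) of 24 higher and 6 (1 to 7) lower, with the adaptor TRAF2 at -0.35 ± 0.06. In the TNF superfamily 5 (2 to 5) of 22 rose and 3 fell: TNFRSF8, the receptor CD30, fell by 0.84 ± 0.06, and TNFRSF12A, the TWEAK receptor, rose by 0.38 ± 0.07. Class I presentation genes had 0 of 11 tested members higher and 2 (0 to 2) lower, and the 3 tested NKG2D ligand genes were not called. The class I count was 0 lower without DMSO replicate 2, and 1 lower without DMSO replicate 1 or FB23 replicate 1, 2 or 3. Omitting a library gave 4 to 5 higher among interferon list genes (without DMSO replicate 1 or FB23 replicate 2), 3 lower among interferon list genes (without DMSO replicate 1 or 2 or FB23 replicate 2), 1 higher among NF-kB genes (without DMSO replicate 1), 1 to 2 lower among NF-kB genes (without DMSO replicate 1 or FB23 replicate 2) and 3 higher among TNF superfamily genes (without DMSO replicate 2).

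Of the chemokine, interleukin and receptor genes 139 are in the files, 69 had no count in the 6 libraries and 34 could be tested, with 6 (2 to 6) higher and 2 (1 to 3) lower. IL6ST, the shared receptor chain gp130, rose by 0.30 ± 0.06 and IL10RB by 0.39 ± 0.07. In the TGF-beta, SMAD and ID list 8 (5 to 11) of 33 rose and 3 (1 to 5) fell, with the ligand TGFB1 at 0.31 ± 0.06. Among NOTCH and WNT genes 6 of 45 rose and 2 (1 to 6) fell, with NOTCH1 at 0.55 ± 0.07, the WNT receptor FZD7 at 0.65 ± 0.10 and RNF43, which removes such receptors, at -0.81 ± 0.17. WNT9A was listed at 0 TPM in all DMSO libraries and at 0.13, 0.41 and 0.28 TPM with FB23. Leaving out single libraries gave 2 higher among chemokine and interleukin list genes (without DMSO replicate 2), 1 lower among chemokine and interleukin list genes (without DMSO replicate 1, 2 or 3 or FB23 replicate 1 or 2), 5 higher among TGF-beta list genes (without DMSO replicate 1 or 2 or FB23 replicate 2), 1 lower among TGF-beta list genes (without DMSO replicate 2 or 3) and 1 to 4 lower among NOTCH and WNT genes (without DMSO replicate 3 or FB23 replicate 1 or 3).

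Cell surface and channel families held a few large single changes. KCNH2, a potassium channel of heart and leukaemia cells, was measured at 172, 172 and 184 TPM with DMSO and 111, 111 and 121 TPM with FB23 and fell by 0.64 ± 0.06, and KCNQ5 fell by 0.59 ± 0.08. SLFN14, a ribonuclease of blood cells and the only 1 of 4 tested Schlafen genes called, stood at 2.34, 3.31 and 2.99 TPM with DMSO and 1.16, 1.23 and 0.82 TPM with FB23 and fell by 1.47 ± 0.19. SELPLG, the P-selectin ligand, and FYB, an adaptor of T cells and platelets, fell by 1.33 ± 0.21 and 1.43 ± 0.17. PLEKHA7, of cell junctions, fell by 1.39 ± 0.13 and CAPN5, a calpain protease, rose by 1.90 ± 0.23, from 0.16, 0.34 and 0.25 TPM to 0.83, 0.89 and 1.01 TPM. Semaphorins, plexins and related guidance genes had 4 of 43 higher and 5 (2 to 9) lower, with SEMA6C at 1.16 ± 0.15 and SEMA4C at -0.48 ± 0.06. Fewer libraries gave 2 to 3 lower among guidance genes (without DMSO replicate 1 or 3 or FB23 replicate 2).

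Of 27 regulators of transcription elongation 2 were higher and 3 (0 to 8) lower, or 18.5% called. The higher ones were HEXIM1, which holds the kinase P-TEFb inactive, and CDK9, its catalytic subunit, at 0.36 ± 0.05 and 0.24 ± 0.05. Called genes made up 14.5% of the zinc-finger family, 11.3% of long intergenic noncoding genes and 11.1% of antisense genes, beside the 23.5% of all tested genes. ZNF genes, many of them KRAB repressors, had 24 (10 to 33) of 394 higher and 33 (17 to 58) lower. Long intergenic noncoding genes had 8 (1 to 8) of 133 higher and 7 (2 to 12) lower. Antisense genes had 12 (4 to 17) of 271 higher and 18 (7 to 23) lower, and since the strand setting of the counting is not given, their reads may belong in part to the genes opposite. Dropping 1 library gave 0 to 1 lower among elongation regulators (without DMSO replicate 1 or 2 or FB23 replicate 2), 10 to 11 higher among ZNF genes (without DMSO replicate 1 or 2 or FB23 replicate 2), 18 to 20 lower among ZNF genes (without DMSO replicate 1 or 3 or FB23 replicate 2), 2 to 4 higher among long intergenic genes (without DMSO replicate 1, 2 or 3 or FB23 replicate 1 or 2), 2 to 4 lower among long intergenic genes (without DMSO replicate 1, 2 or 3 or FB23 replicate 2), 4 to 6 higher among antisense genes (without DMSO replicate 1 or FB23 replicate 2) and 7 to 11 lower among antisense genes (without DMSO replicate 1, 2 or 3 or FB23 replicate 1 or 2).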

How the data were processed

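Expected counts, TPM and FPKM per gene are RSEM output made by the authors, per the file headers. RSEM 1.2.31 and the build GRCh38 are named by the submitters' processing notes. Aligner, annotation release, strand setting and read filters were not given in the sources used here. Each of the deposited tables, 1 per library, lists 26830 genes with an expected count, a TPM and an FPKM value. Poly(A) selection and a directional NEBNext kit are stated per the labels' protocols. FPKM was not used.

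Expected counts were rounded, filtered with filterByExpr (minimum count 10, minimum total 15), scaled by TMM and fitted with edgeR 4.0.16 in R 4.3.3, all 9 libraries sharing 1 estimate of the spread (common biological coefficient of variation 5.12%). P-values are two-sided and Benjamini-Hochberg adjusted over 13365 genes. SE is the fold change divided by the square root of F. The fit was tested on simulated data. The limit for 0 counts is 3 counts over the 6 libraries pooled and covers counting error only.

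The members and gene lists were chosen with earlier results of these data known. Genes to name were drawn, not all of them used, from FTO, ALKBH5, METTL3, MYC and RARA, the 12 largest rises and falls (mean log2 CPM of at least 1, no overlap), up to 4 called members of each of 85 lists by size of change and the 2 most abundant members; the other genes named were added from the same lists after their values were seen, and some list members are not reported here. A further list, of RNAs without a poly(A) tail, was also added then. The mean log2 CPM used as a limit on level was taken over all 9 libraries, those with FB23-2 included. Matching replicate numbers were not taken as pairs, since the labels tie them to nothing and the correlations of deviations (0.0439, 0.0755 and 0.0589) were all under 0.1. Alternatives are DESeq2 1.42.0, limma 3.58.1 (voom, and log2 TPM with a pseudocount of 1), other scalings and filters, the 6 libraries alone, a replicate block, thinning to the smallest library, correction for GC and length trends (mgcv 1.9.3, GENCODE 29, GC known for 96.8% of genes) and leaving out each library.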

Additional observations from a re-analysis of the deposited data

How the results depend on the processing

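Called genes numbered 2194 to 4579 over the 12 other ways of processing, against 3144. Genes called lower were 2684 with GC and length trends removed and 939 with limma on log2(TPM + 1), against 1497, and genes called with an absolute log2 fold change of at least 1 were 23 on that TPM scale, where the pseudocount shrinks low genes, against 155. Leaving out 1 library at a time gave 2096 to 3038 called genes, 1133 to 1616 higher, 963 to 1456 lower (963, 994 and 993 without DMSO replicate 1, DMSO replicate 2 and FB23 replicate 2) and 110 to 160 changed by at least 1. The fit with a replicate block called 2504 genes, 1336 higher and 1168 lower, and each FB23 library deviated most like the DMSO library of the same number, a hint from the data and not from the design. Of 408 called genes among the 513 followed through the settings, 259 stayed called in every setting that tested them, and none changed direction. The cause of these shifts was not tested. Depth limits genes of low count, and FB23 replicate 1 was the shallowest library.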

Other observations

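Some of the largest changes lay in genes outside the lists. MYEOV, a gene amplified in myeloma, was measured at 12.6, 13.3 and 13.5 TPM with DMSO and 5.88, 7.13 and 6.36 TPM with FB23, and fell by 1.02 ± 0.09 on the log2 scale (SE, edgeR adjusted p = 6.14e-07). SCGN, a calcium-binding protein of secretory cells, fell by 1.28 ± 0.16, from 8.43, 11.8 and 10.4 TPM to 3.29, 4.47 and 4.55 TPM. PAPPA, a protease that cuts IGF-binding proteins, fell by 1.02 ± 0.15 at under 1 TPM. BAIAP3, a regulator of exocytosis, was measured at 0.89, 0.64 and 0.8 TPM with DMSO and 1.89, 2.08 and 2.19 TPM with FB23, a rise of 1.42 ± 0.13, and CRISPLD2, a secreted protein, rose by 1.47 ± 0.20. In all 5 genes the FB23 libraries lay wholly on 1 side of the DMSO libraries, and no setting that tested the gene lost the call.

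Of the 12 largest rises within the limits on level and overlap set for genes to name, several lay in genes of very few counts. Tested genes outside these 12 reached higher values, up to 5.13 in the NOTCH and WNT list. Among the 12, GOLGA8O had the largest rise, at 3.01 ± 0.50. It belongs to a golgin family with near-identical copies, among which its reads may be divided. GOLGA8O went from 0.04, 0.02 and 0.03 TPM with DMSO to 0.14, 0.16 and 0.22 TPM with FB23. Its call was lost on log2 TPM (limma adjusted p = 0.141). EFR3B, at 0.14 TPM or less in all 6 libraries, was at 2.37 ± 0.68. Its call was lost without DMSO replicate 3 or FB23 replicate 2 (edgeR adjusted p = 0.0786 and 0.0738) and on log2 TPM (limma adjusted p = 0.339). ATP10D was at 1.47 ± 0.41, a call lost without DMSO replicate 2 or FB23 replicate 2 (edgeR adjusted p = 0.0724 and 0.0545) and on log2 TPM (limma adjusted p = 0.368). TRIM36 and HIST1H2BG were at 1.42 ± 0.35 and 1.41 ± 0.33, calls lost with libraries thinned to the smallest total (adjusted p = 0.145 and 0.0715). Among the falls, FAM178B went from 6.56, 6.83 and 7.24 TPM to 2.57, 2.9 and 2.57 TPM, a fall of 1.36 ± 0.12, and SLC6A19, an amino acid transporter, from 4.71, 4.74 and 5.56 TPM to 1.98, 2.03 and 2.18 TPM, a fall of 1.27 ± 0.11. SLC16A3, a lactate exporter, was at -1.16 ± 0.29 and under 1.1 TPM. Its call was lost without FB23 replicate 3 (-0.87, edgeR adjusted p = 0.0553) and with libraries thinned to the smallest total (-1.08, adjusted p = 0.0678).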
